A study of Sus scrofa with 2 samples.

Results

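Long chromatin loops that did not outline a topologically associating domain (TAD, a stretch of chromatin that contacts itself more than its surroundings) numbered 400 in pig spleen. They were chosen by 3 conditions applied to the authors' deposited loop and TAD tables. A loop had to lie on chromosomes 1 to 18, its 2 anchors had to start at least 400 kb apart, and no single listed TAD could have its start within 20 kb of the left anchor together with its end within 20 kb of the right anchor. The 400 loops were 12.3% of the 3261 autosomal loops and came from 3410 listed loops in all. Of 444 autosomal loops of 400 kb or more, 44 outlined a TAD, so 90.1% of long loops belonged here. By span, 322 loops measured 400 kb to 1 Mb, 42 measured 1 to 2 Mb and 36 were over 2 Mb. Span and position relative to TAD corners were therefore fixed by the selection and are not results.

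The study mapped chromatin contacts in spleen tissue of pig (Sus scrofa) by in situ Hi-C in 2 biological replicates, and its title asks how transposable elements shape folding in this organ. Formaldehyde-fixed chromatin was cut with DpnII, and ends that lay close together in the nucleus were ligated and sequenced in pairs. There was 1 group, with no treatment or genotype stated, and nothing on breed, age or sex is given in the sources used here. Spleen holds B cells, T cells, macrophages, stroma and blood cells, and a contact seen in the whole tissue cannot be assigned to any of them. Both tables cover the series as a whole. No loop has a value per replicate, so the spread between the replicates cannot be given and no difference was tested. Errors are exact Poisson intervals of the contact counts, Wilson intervals of shares, or the spread over 18 chromosomes. They cover counting error or treat loops as independent, and 144 of the 400 loops touch another loop of the set.

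In mammalian cells most loops form when the cohesin complex reels in chromatin until it meets the DNA-binding protein CTCF, and such loops commonly lie inside a TAD or join its corners. Other long contacts join genes held by Polycomb proteins, or active genes and their distant enhancers, and can pass over several domains. In lymphoid tissue, distant enhancers of lineage regulators have been mapped far from the genes they serve. These statements are background. The deposited tables hold neither CTCF binding nor enhancer marks.

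Each listed loop is a pixel, a pair of 25 kb windows with an observed contact count and the contacts expected from the donut of pixels around it. The strength used below is the ratio of observed to expected contacts. The 400 loops had a median of 64 observed contacts (quartiles 42 and 78, range 10 to 173) against a median expectation of 24.8. Their median ratio was 2.54, with a 95% interval of the median of 2.46 to 2.59 and a range of 1.69 to 122. These values helped to decide whether a pixel was listed at all, so they describe the loops and support nothing further. Touching pixels formed 318 groups, of which 256 held 1 pixel and the largest held 6.

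Longer classes had higher ratios and fewer contacts. Loops of 400 kb to 1 Mb had a median of 66 contacts (range 10 to 173), an expectation of 28.4 and a ratio of 2.41 (95% interval 2.36 to 2.48). For 1 to 2 Mb the median was 33.5 contacts (range 10 to 122), with an expectation of 5.72 and a ratio of 4.41 (3.32 to 6.55). Over 2 Mb the median was 31.5 contacts (range 12 to 138), with an expectation of 2.94 and a ratio of 7.41 (5.95 to 12.9). Without the loops of this class on chromosome 6, which lie in 1 stretch, the medians of the other 25 were 22 contacts, 2.48 expected and a ratio of 10.8. From the shortest to the longest class the expectation thus fell further than the observed contacts did. The part of the listing threshold in this order was not tested. Among shorter autosomal loops the median ratio also rose with span, from 1.85 at 100 to 200 kb to 2.21 at 300 to 400 kb. The 44 long loops that closed a TAD had a median of 91 contacts and a ratio of 2.42 (2.33 to 2.67), with no ratio above 3.15.

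**Figure D1:**
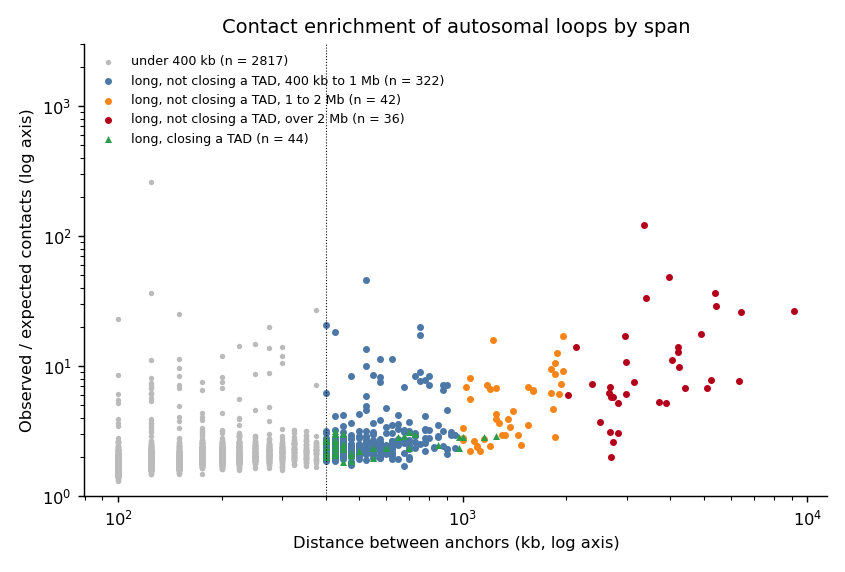
Ratio of observed to expected contacts against the distance between anchors for every autosomal loop, both axes logarithmic. Points are loops, coloured by set, and the dotted line marks 400 kb. The median ratio is 2.41 at 400 kb to 1 Mb, 4.41 at 1 to 2 Mb and 7.41 over 2 Mb, and the loops that close a TAD (triangles) stay at or below 3.15.

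The lower limit of 400 kb did not mark a step. The 36 loops of 375 kb that did not close a TAD had a median of 73 contacts and a ratio of 2.25, beside 74 contacts and 2.31 for the 39 loops of exactly 400 kb. At 350 kb the medians were 78 contacts and 2.16 in 45 loops, and at 425 kb 71 contacts and 2.35 in 35 loops. On the other condition, 37 of the 400 loops would count as closing a TAD if edges were matched within 40 kb. Those 37 loops had a median span of 500 kb and a ratio of 2.23.

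The loops were found on all 18 autosomes, at 0.185 ± 0.0624 loops per Mb (SD, n = 18 chromosomes). Chromosome 8 had the lowest density, at 0.0937 per Mb, with 13 loops that all measured under 1 Mb. Chromosome 10 had the highest, at 0.332 per Mb, and its 23 loops included 5 of 1 to 2 Mb and 8 over 2 Mb. Chromosome 5 followed at 0.325 per Mb with 34 loops, of which 11 ended at a single window (chr5:40175001-40200000). Chromosome 1 held the most loops, 45, of which 42 measured 400 kb to 1 Mb. The longest class was uneven: chromosomes 6 and 10 together held 11 and 8 of its 36 loops, and chromosomes 8, 9, 13 and 18 held none. The median ratio of chromosome 10, 5.20, stood above those of the other chromosomes, whose mean with chromosome 10 included was 2.72 ± 0.645 (SD, n = 18).

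**Figure D2:**
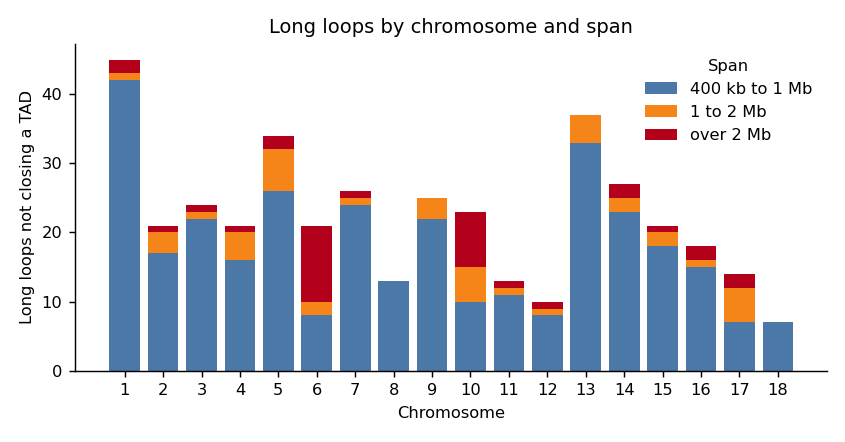
Number of long loops not closing a TAD on each of 18 autosomes, stacked by span class. Chromosome 1 has the most (45), while 11 loops over 2 Mb lie on chromosome 6 and 8 on chromosome 10.

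Although no loop closed a TAD by the rule, many began or ended at a TAD edge. An anchor lay within 20 kb of an edge in 182 of the 400 loops (45.5%, 95% Wilson interval 40.7 to 50.4), beside 47.7% of autosomal loops under 400 kb that did not close a TAD. Counted per anchor, 24.8% of left and 29.2% of right anchors lay that close to an edge, beside 9.52% of all autosomal 25 kb bins. The share was 50.6% (45.2 to 56.0) at 400 kb to 1 Mb, 33.3% (21.0 to 48.4) at 1 to 2 Mb and 13.9% (6.08 to 28.7) over 2 Mb. Per anchor the longest loops were at an edge in 8.33% on either side. Both shares over 2 Mb are lowered by the 11 loops on chromosome 6, which lie in 1 stretch and met no edge. With 1 pixel per group, an anchor met an edge in 19.2% (8.51 to 37.9) of 26 groups over 2 Mb. Whether the longest loops differ from all bins was not tested. Where an anchor did meet an edge, its side was uneven. The left anchor lay at a TAD start in 66 loops and at a TAD end in 21, and the right anchor lay at an end in 83 and at a start in 24. The loops therefore mostly ran inward from the edge, into the TAD it belongs to, as did shorter loops not closing a TAD, with 315 starts and 54 ends on the left and 479 ends and 89 starts on the right. With 1 pixel per group the counts were 57 starts and 17 ends on the left and 69 ends and 21 starts on the right.

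**Figure D3:**
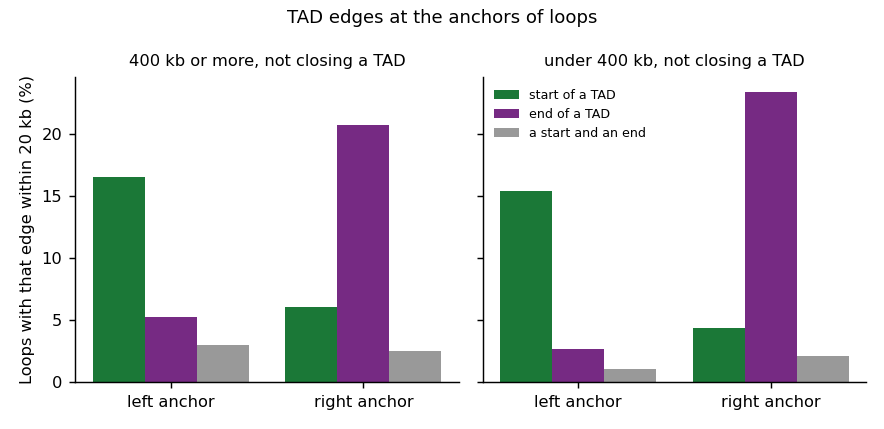
Share of loops whose left or right anchor lies within 20 kb of a TAD start, a TAD end or both, for the 400 long loops (left panel) and for autosomal loops under 400 kb not closing a TAD (right panel). In both sets the left anchor meets starts more often than ends (16.5% and 5.25% of the long loops) and the right anchor meets ends more often (20.8% and 6.0%).

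Both anchors met an edge in 34 loops (8.5%). In 13 of them the left anchor lay at the start of a TAD and the right anchor at the end of another. The next most common pair was start with start, in 8 loops, followed by end with end in 5. On chromosome 13 a loop with a TAD start at its left anchor (chr13:131650001-131675000 with chr13:132250001-132275000, 600 kb) had 113 contacts against 36.9 expected. Its right anchor met an end and a start at once. It spanned 2 whole TADs and had gene ends at both anchors. LSG1, a GTPase of ribosome assembly, and FAM43A lay on the left, and XXYLT1, a sugar transferase, and ACAP2, which switches off the small GTPase ARF6, on the right. A single loop over 2 Mb had both anchors at edges, the 3900 kb loop on chromosome 10 (chr10:39075001-39100000 with chr10:42975001-43000000), with 15 contacts against 2.88. Its left anchor held an end of MKX, a homeobox gene of tendon cells.

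Most of the loops had neither anchor inside a listed TAD, judged by the midpoint of the anchor. Neither anchor was in a TAD in 248 loops (62.0%, 57.2 to 66.6), 1 anchor was in a TAD in 92, both were in the same TAD in 49 (12.2%) and both were in different TADs in 11. Among shorter loops not closing a TAD, 33.2% had neither anchor in a TAD and 58.2% had both anchors in 1 TAD. Large spans leave few TADs that could hold a loop, and the 49 loops inside a TAD lay in domains of 510 to 2080 kb, with a median of 750 kb. Over 2 Mb no loop lay inside a TAD, and 28 of 36 had neither anchor in any. A whole TAD was spanned by 151 loops (37.8%), and over 2 Mb by 34 of 36, with a median of 3 TADs and a highest count of 8.

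Shorter loops were often nested within the long ones. A shorter loop pointing inward from the same anchor, or from the window next to it, was listed for 157 of the 400 loops (39.2%, 34.6 to 44.1), beside 12.2% of loops under 400 kb that did not close a TAD. Among the 44 long loops that closed a TAD the share was 40.9% (27.7 to 55.6). Longer loops leave more room for such a loop, and the part of span in these shares was not tested. In 17 loops shorter loops led away from both anchors and met in the middle. An anchor of 87 loops (21.8%) was the same window as, or the window next to, an anchor of a loop that closed a TAD. The share was 26.7% of loops under 400 kb that did not close one.

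Gene ends, meaning either annotated end of a protein-coding gene since the annotation used gives no strand, lay at an anchor of 242 of the 400 loops (60.5%, 55.6 to 65.2). The share among the other autosomal loops was 70.7%. Both anchors held a gene end in 84 loops (21.0%, 17.3 to 25.3), beside 28.2% of the other autosomal loops. Of all autosomal 25 kb bins, 24.2% held a gene end, and of the 703 distinct anchors of the long loops 284 (40.4%) did. The share with a gene end was 59.9% (54.5 to 65.1) at 400 kb to 1 Mb and 45.2% (31.2 to 60.1) at 1 to 2 Mb. It was 83.3% (68.1 to 92.1) over 2 Mb, where 14 of 36 loops had a gene end at both anchors. Without the 11 loops over 2 Mb on chromosome 6, which lie in 1 gene-dense stretch, the share was 76.0% (56.6 to 88.5) of 25 loops. The long loops that closed a TAD held a gene end in 52.3% (37.9 to 66.3) of 44. The loops over 2 Mb spanned 7.48 protein-coding genes per Mb at the median (7.05 with 1 pixel per group), against 3.81 for 400 kb to 1 Mb. Loops under 400 kb that did not close a TAD spanned 6.67 per Mb. Only genes with both ends inside the span were counted, and the part of span in these values was not tested.

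**Figure D4:**
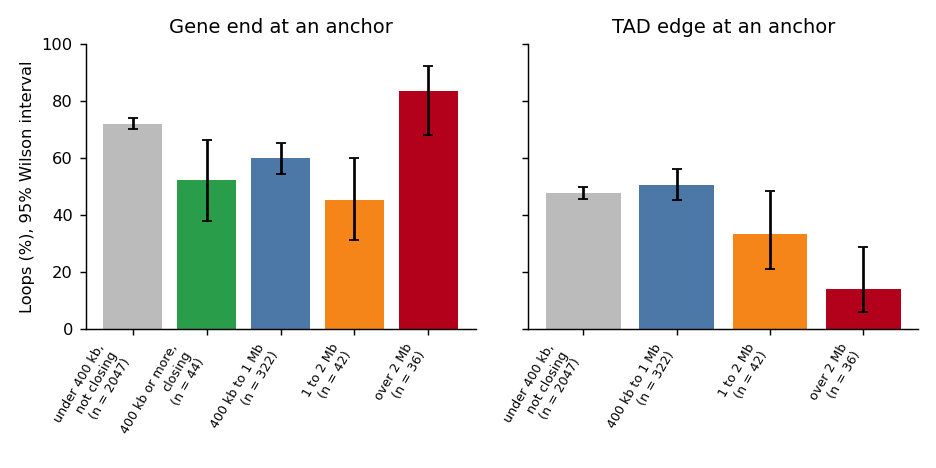
Share of loops with a protein-coding gene end at an anchor (left) and with an anchor within 20 kb of a TAD edge (right), by set. Bars are percentages and whiskers 95% Wilson intervals, which treat loops as independent. Over 2 Mb, 83.3% of loops hold a gene end while 13.9% have an anchor at a TAD edge, and 11 of these 36 loops lie in 1 stretch of chromosome 6.

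In all, 376 protein-coding genes had an end at an anchor of a long loop, which is 2.01% of the 18722 autosomal ones, and 3334 had an end at an anchor of any autosomal loop. The annotation gives no name beyond a LOC number to 79 of the 376. Gene reuse was rare: 357 genes lay at 1 group of loops, 19 at 2 groups and none at more. PLK2, a kinase induced by stress and by serum, shared its anchor on chromosome 16 with GAPT, an adaptor of B cells and myeloid cells. This anchor paired with windows 550 and 1000 kb away, with 69 contacts against 29.9 and 64 against 22.7. SORL1, a sorting receptor of endosomes, ended at an anchor on chromosome 9 with loops of 550 kb (64 contacts against 23.9) and 850 kb (47 against 16.3). SIX3, a homeobox gene of the forebrain and eye, had loops of 450 and 550 kb on chromosome 3, with 60 contacts against 21.1 and 51 against 17.1. In each of these pairs of loops the ratios differed by less than their Poisson intervals. TMEM5, a glycosyltransferase gene, was at loops of 425 and 475 kb that led away from it in opposite directions, with 110 contacts against 39.2 and 48 against 21.0.

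Of 38 genes listed for B and plasma cells, 7 were at anchors of long loops (18.4%, 9.22 to 33.4). The share of all autosomal protein-coding genes was 2.01%. The list was chosen with earlier results of these data known, so these shares describe it and test nothing. At anchors of any autosomal loop there were 18 of the 38 listed genes and 3334 of the 18722. BACH2, a repressor that keeps B cells from becoming plasma cells, was at the left anchor of a 575 kb loop on chromosome 1 with 77 contacts against 39.3 (ratio 1.96, 1.55 to 2.45). BCL6, the master regulator of germinal centre B cells, was at the left anchor of the longest loop of the list, 1125 kb on chromosome 13, with 77 contacts against 34.9 (ratio 2.21, 1.74 to 2.76). SYK, the kinase that carries the B cell receptor signal, was at a 625 kb loop with 74 contacts against 30.1, and ELL2, an elongation factor of immunoglobulin secretion, at a 450 kb loop with 67 against 25.9. The remaining 3 genes of the list were looked up after their values were seen. PRDM1, which drives plasma cell formation, was at a 625 kb loop with 57 contacts against 27.2, inside a single TAD. SWAP70, a signalling protein of B cells, was at a 475 kb loop with 64 against 28.7. EBF1, an early B cell factor, had 1 end at each anchor of a 400 kb loop of 66 contacts against 27.4, inside a single TAD. The far anchor held no protein-coding gene end for BACH2, BCL6, SYK and ELL2. Other genes lay at the same anchors: GJA10 with BACH2 and ATG5 with PRDM1, while ADM and SBF2 were opposite SWAP70. The false discovery rates of most of these loops were in the weaker part of the list: of the 7 genes, 1, ELL2, remained among the 185 long loops at or below the median rate of autosomal loops. With a span limit of 500 kb, 4 were left.

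Of 49 genes of T and NK cells, 4 had an end at an anchor (8.16%, 3.22 to 19.2), beside 2.01% of all autosomal protein-coding genes. At anchors of any autosomal loop the shares were 20.4% and 17.8%. All gene lists were chosen with earlier results of these data known, so their shares test nothing. LEF1, a transcription factor of T cells and of Wnt signalling, was at a 425 kb loop with 80 contacts against 41.6. EOMES, a factor of cytotoxic lymphocytes, was at a 550 kb loop with 68 against 26.8, opposite CMC1 and AZI2, and CD247, which passes on the T cell receptor signal, at a 450 kb loop with 64 against 29.0. NKG7, a cytotoxic granule protein, was at 2 touching pixels of 2675 and 2700 kb on chromosome 6. It is also listed for the leukocyte receptor region. Of 41 genes of macrophages and dendritic cells, 2 were at anchors (4.88%, 1.35 to 16.1), and 12.2% were at anchors of any autosomal loop. FCER1G, the shared signalling chain of Fc receptors, was at loops of 425 and 675 kb on chromosome 4 (66 contacts against 27.6 and 41 against 16.0), but its anchor also held ends of other genes, among them APOA2, NR1I3 and TOMM40L. FLT3, the growth factor receptor of dendritic cell precursors, was at a 550 kb loop with 48 against 18.8, beside an end of URAD.

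Cytokines and their receptors were not common at these anchors, with 3 of 155 (1.94%, 0.660 to 5.54), close to the 2.01% of all genes. IL20RB and IL20RA, chains of receptors for the IL-20 family, were at loops of 625 and 450 kb with 75 contacts against 34.7 and 64 against 33.2. Of 36 interferon response genes 2 were at anchors (5.56%, 1.54 to 18.1), and 30.6% were at anchors of any autosomal loop. ZBP1, a sensor of Z-form nucleic acid, was at touching pixels of 400 and 425 kb with 78 and 81 contacts, and IFI44 was at a 525 kb loop with 90 against 40.6. Developmental transcription factors, a list of genes bound by Polycomb in many tissues, were at anchors in 5 of 159 cases (3.14%, 1.35 to 7.15). Besides SIX3 they included EMX2, LHX2 and FOXC1. EMX2 was at touching pixels of 650 and 675 kb inside 1 TAD, with 75 and 94 contacts against 28.6 and 34.5. LHX2 had 67 contacts against 30.7 and FOXC1 55 against 22.9. None of these 5 genes was joined to another by a long loop.

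Shares of large gene families at these anchors were not told apart from the 2.01% of all autosomal protein-coding genes. Zinc finger genes were at anchors in 3 of 317 cases (0.946%, 0.322 to 2.74), with ZBTB5, ZBTB7C and ZNF134, and solute carriers in 2 of 311 (0.643%, 0.176 to 2.31). The solute carriers were SLC25A51, the mitochondrial NAD carrier, and SLC38A9, an arginine sensor of the lysosome. Ribosomal protein genes were at anchors in 2 of 79 cases, RPS9 and RPL17. Of 39 cytochrome P450 and UGT genes there was 1, CYP2C36. None was found among 28 genes of chromatin architecture (upper limit 12.1%), 42 protocadherin and neuronal adhesion genes (8.38%), 48 keratin and epidermal genes (7.41%), 27 housekeeping genes (12.5%), 16 olfactory and taste receptor genes (19.4%) or 2 histone genes. Of 28 genes listed for the leukocyte receptor region on chromosome 6, 8 were at anchors, all of them at loops over 2 Mb of 1 stretch. Most of the 8 are neighbours rather than receptors, among them ETFB, LIM2 and RPS9, while OSCAR and TARM1 are receptors.

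Of loops of 400 kb to 1 Mb with named genes at both anchors, the LSG1 loop on chromosome 13 had the lowest false discovery rate. Loops on chromosomes 9 and 15 came next. A 425 kb loop on chromosome 9 (chr9:85400001-85425000 with chr9:85825001-85850000) joined ISPD, an enzyme of dystroglycan glycosylation, with LRRC72, with 77 contacts against 23.9 (ratio 3.23, 2.55 to 4.03). On chromosome 15 a 425 kb loop (chr15:77125001-77150000 with chr15:77550001-77575000) joined GORASP2, a stacking protein of the Golgi, with METTL8, an RNA methyltransferase, and DCAF17. It had 88 contacts against 32.4 (ratio 2.72, 2.18 to 3.35). GADD45G, a growth arrest gene induced by stress, was at the left anchor of a 475 kb loop on chromosome 14 with 121 contacts against 40.7 and no gene end at the other anchor. A 525 kb loop on chromosome 13 (chr13:130775001-130800000 with chr13:131300001-131325000) had 113 contacts against 35.9, with no gene end at either anchor. On chromosome 5 a 750 kb loop with no gene end and 60 contacts against 6.68 had a ratio of 8.98 (6.85 to 11.6).

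The loops fell along a wide range of strength, and a ratio of 4 was used to describe its upper part. It was reached by 87 loops in 70 groups (21.8%), beside 1.75% of the other autosomal loops, which are mostly shorter. The share was 34.1% among loops at or below the median false discovery rate of autosomal loops, and 15.8% by the lowest ratio against the 4 neighbourhoods. By class the share was 10.6% at 400 kb to 1 Mb, 52.4% at 1 to 2 Mb and 86.1% over 2 Mb. The 87 strong loops had fewer contacts than the 313 others, 27 against 68 at the median, on an expectation of 3.38 against 29.4. They met TAD edges in 15 cases (17.2%), against 167 of the others (53.4%). A gene end lay at an anchor in 57.5% and 61.3%. A gene end with a name other than a LOC number lay at an anchor in 28 of the 87 (32.2%) and in 182 of the 313 (58.1%).

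The contrast held within 400 kb to 1 Mb, where 34 loops in 27 groups reached 4 and 288 in 230 groups did not. Many of the 34 are not separate cases. Of them, 5 lay in chr7:79150001-80025000 and 5 in chr13:161250001-162175000, and others shared the window at chr5:40175001-40200000. The 34 loops had a median of 27 contacts against 3.63 expected, and the 288 had 68 against 29.7. Named gene ends were at 2 of the 34 (5.88%) and at 169 of the 288 (58.7%), and TAD edges at 4 (11.8%) and 159 (55.2%). Over 50% of the spanned genes were unnamed in 23 of the 34 (67.6%) and in 14 of the 288 (4.86%), while 16.1% of autosomal protein-coding genes are unnamed. Some of these shares rest on few genes: the 400 kb loop at the chromosome 5 window spanned 1 gene, which was unnamed. The 34 loops spanned 13.0 genes per Mb at the median and the 288 spanned 3.56. Within this class, unnamed genes thus moved with the ratio, though in loops that share stretches. Expected contacts are the denominator of the ratio, so their lower value among the 34 follows from the sorting and is not a separate result. Over 2 Mb, more than 50% of the spanned genes were unnamed in 6 of the 31 loops that reached 4 (19.4%) and in all 5 that did not. These were the 11 loops over 2 Mb of chromosome 6, which lie in 1 stretch. The counts over 2 Mb therefore show how the ratio of 4 split that stretch and are not read as an order of the class. At 1 to 2 Mb the counts were 3 of 22 and 0 of 20. The part of unnamed genes in the ratios was not tested, and how uniquely reads map in these stretches was not analysed here.

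The strong loops lay in 48 separate stretches, and 11 stretches with more than 1 such loop held 50 of them. In chr7:79150001-80025000, where 30 of 30 spanned genes were unnamed, 5 loops had 16 to 173 contacts and ratios of 4.29 to 19.99. The loop with the most contacts of all 400 lay here, 750 kb long, between chr7:79250001-79275000 and chr7:80000001-80025000, with 173 contacts (148 to 201) against 8.65 and a ratio of 19.99 (17.1 to 23.2). In chr13:161250001-162175000, with 21 of 21 genes unnamed, 5 loops had 10 to 46 contacts and ratios of 4.80 to 46.3. The highest of these ratios rested on 10 contacts against 0.216. In chr9:4400001-5000000 the 2 strong loops spanned 44 genes, of which 42 were unnamed.

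In chr2:52950001-54575000, with 33 of 33 genes unnamed, 4 strong loops were nested inside each other. Their spans were 1600, 1400, 1200 and 800 kb, with 33, 82, 27 and 20 contacts and ratios of 6.55, 4.54, 6.69 and 8.35. The 3 longest had exactly the same midpoint. A similar nest lay on chromosome 17, where loops of 1475, 1350 and 1275 kb with 48, 122 and 102 contacts were centred within 12.5 kb of the next in size. Ends of LRRN4, LOC100513319 and LOC100155289 were at anchors of that nest, and LOC100513319 had 392 contacts summed over its 4 long loops. Over all 400 loops, 9 loops formed 7 pairs of separate groups nested around midpoints at most 12.5 kb apart. They were 5 of the 87 strong loops and 4 of the 313 others. Shared midpoints were searched for after the loops had been seen.

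A single window stood out for the number of loops it joined. The 25 kb window at chr5:40175001-40200000 was the right anchor of 11 loops in 6 groups, and no other window was an anchor of more than 3. It held no protein-coding gene end. Its loops reached 400 to 1550 kb to the left and none to the right. Contacts were lower at larger distances, from 98 at 400 kb and 59 at 425 kb to 38 at 525 kb, 29 at 550 kb and 28 at 575 kb. Beyond that they hardly changed, with 27 and 29 at 750 and 775 kb, 30 and 28 at 1025 and 1050 kb, 24 at 1250 kb and 23 at 1550 kb. Expected contacts stayed between 3.26 and 5.02 throughout, so that the ratio fell from 20.8 to between 5.58 and 9.96 from 525 kb on. The Poisson intervals of the contacts beyond 525 kb overlap. A further loop of 375 kb, below the span limit, reached the same window with 46 contacts against 1.70. CAPS2 and GLIPR1L1 had ends at the farthest left anchor, and the other 10 left anchors held none. Without this window 389 loops were left and 19.5% of them reached a ratio of 4.

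**Figure D5:**
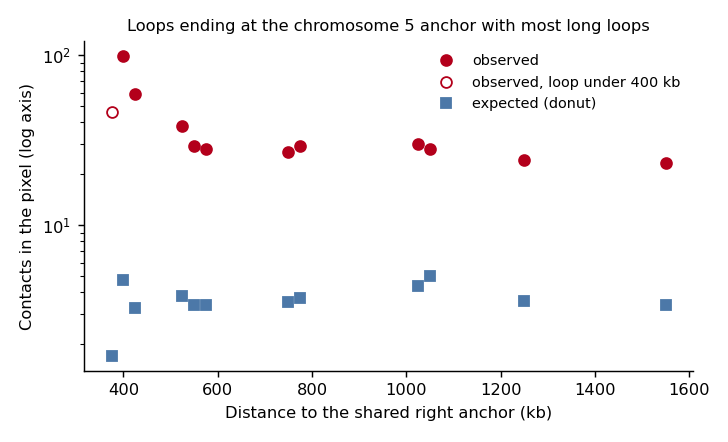
Observed (circles) and expected (squares) contacts, on a log axis, of the loops that end at chromosome 5's most used window, against their distance to it in kb. Filled circles are the 11 long loops and the open circle is a 375 kb loop. Contacts fall from 98 at 400 kb to 23 at 1550 kb, while expected contacts of the 11 loops stay between 3.26 and 5.02.

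Between 1 and 2 Mb the loops of lowest false discovery rate included 3 on chromosome 10. A 1950 kb loop (chr10:43100001-43125000 with chr10:45050001-45075000) had 38 contacts against 2.25 and a ratio of 16.89 (11.96 to 23.19), with TAD starts at both anchors. CUBN, the receptor that takes up vitamin B12 bound to intrinsic factor, ended at its left anchor, and 4 shorter loops pointed inward from there. An 1800 kb loop beside it had 35 contacts against 5.64 and CACNB2, a subunit of calcium channels, at its right anchor. Both belonged to chr10:38925001-45075000, where 7 strong loops in 5 groups crossed or shared anchors. An 1850 kb loop farther left on this chromosome had 31 contacts against 2.96 and no gene end. On chromosome 9 a 1225 kb loop (chr9:28450001-28475000 with chr9:29675001-29700000) had 35 contacts against 2.20 and spanned no protein-coding gene, as did 23 of the 400 loops. CLYBL, a mitochondrial enzyme that clears citramalyl-CoA, was at a 1875 kb loop on chromosome 11 with 21 contacts against 1.67. On chromosome 4, loops of 1050 and 1925 kb had 33 contacts against 4.05 and 28 against 3.86, with no gene end at an anchor.

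The 36 loops over 2 Mb formed 26 groups. A gene end lay at both anchors of 14 of the 36 loops and at 1 anchor of 16 of them. The highest ratio of all 400 loops was that of the 3350 kb loop on chromosome 17, 122 (90.7 to 161), and its interval lay above those of the next, a 3975 kb loop on chromosome 10 with 48.1 (35.7 to 63.4), and a 525 kb loop on chromosome 13 with 46.3 (22.2 to 85.1). The longest loop spanned 9125 kb on chromosome 16, between chr16:25500001-25525000 and chr16:34625001-34650000, with 38 contacts (26.9 to 52.2) against 1.44 and a ratio of 26.5 (18.8 to 36.4). SLC38A9 ended at its right anchor, its anchors lay in different TADs, and it passed over 6 whole TADs and 55 genes. On chromosome 3 a 4925 kb loop (chr3:87350001-87375000 with chr3:92275001-92300000) had 44 contacts against 2.48 and a ratio of 17.7 (12.9 to 23.8). Its left anchor held ends of GPR75, a receptor linked to body weight, and ERLEC1, a lectin of the endoplasmic reticulum, and it spanned 9 genes.

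Loops of very low expectation had the widest intervals. A 5425 kb loop on chromosome 7 had 19 contacts against 0.658, a ratio of 28.9 (17.4 to 45.1), and no gene end. A 6425 kb loop on chromosome 4 had 18 contacts against 0.689, a ratio of 26.1 (15.5 to 41.3), and a TAD start at its right anchor. A 5400 kb loop on chromosome 12 had 14 contacts against 0.385, a ratio of 36.4 (19.9 to 61.1), and TOM1L1, an adaptor of endosomal sorting, at its right anchor. These 3 intervals overlap, so the order of the ratios is not resolved. All 3 exceed the interval of the 2975 kb loop on chromosome 14, which had 42 contacts against 3.88 and a ratio of 10.8 (7.80 to 14.6).

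Named genes lay at both anchors of 3 of the 36 loops over 2 Mb. In the 4200 kb pixel of the SCCPDH loop on chromosome 10, with 83 contacts against 5.92, ends of TLR5, the receptor of flagellin, and SUSD4 lay opposite SCCPDH. FBP2, the muscle form of fructose bisphosphatase, was joined over 5250 kb on chromosome 10 to UBAP2 and UBE2R2, a ubiquitin-conjugating enzyme, with 16 contacts against 2.06. Its left anchor, at chr10:27625001-27650000, lay at a TAD start, and the loop passed over 8 TADs. From the same anchor a 450 kb loop with 70 contacts against 31.3 also ran to the right. MTRF1L, a release factor of mitochondrial translation, and FBXO5, an inhibitor of the anaphase-promoting complex, were joined over 6325 kb on chromosome 1 to FBXO30, with 15 contacts against 1.95 and 8 TADs between them. Their ratios were 7.76 (4.43 to 12.6) and 7.71 (4.31 to 12.7).

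Other loops over 2 Mb had named genes at 1 anchor. CPS1, the first enzyme of the urea cycle, was at a 3700 kb loop on chromosome 15 with 16 contacts against 3.004. PTCHD3 was at a 4050 kb loop on chromosome 10 with 32 against 2.86, and CYP2C36 at a 4425 kb loop on chromosome 14 with 12 against 1.78. The MKX loop and the PTCHD3 loop shared their right anchor at chr10:42975001-43000000, where a TAD ends. Loops of 2025 kb on chromosome 1, 2375 kb on chromosome 16 and 3150 kb on chromosome 2 had 17, 17 and 12 contacts against 2.86, 2.34 and 1.59, and no gene end.

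Where listed pixels touched, contacts within a group showed how sharply a loop was placed. The SCCPDH loop on chromosome 10 held 3 pixels from the same left anchor, with 83, 113 and 65 contacts at 4200, 4225 and 4250 kb. On chromosome 17 the 3350 kb pixel with 50 contacts against 0.409 had a neighbour of 3400 kb with 22 against 0.661, shifted outward at both ends. On chromosome 5 the 2950 kb pixel at CDK17 and ELK3 with 101 contacts against 5.91 had a neighbour of 2975 kb with 32 against 5.26. The largest group, 6 pixels on chromosome 6, ran from 25 to 138 contacts and from 2.02 to 6.96 in ratio. Its expected contacts fell from 47.2 to 4.21 as its pixels moved to the right, so the pixel of most contacts was not that of the highest ratio. Outside this group, chromosome 6 held another 4 groups over 2 Mb. They included a 2725 kb loop from OSCAR and TARM1, receptors of myeloid cells, with 56 contacts against 21.4, and a 2500 kb loop with 31 against 8.28. A 2125 kb loop with 18 against 1.29 had the highest ratio of the 11, 14.0 (8.29 to 22.1).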

How the data were processed

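Per the submitters' processing notes HiC-Pro 3.1.0 was used, and per the file headers juicer_tools 1.9.9 wrote the loop table. The deposited loop table gives the observed contact count per pixel (not normalized), 4 expected signals and 4 q-values, and the bin score columns that the authors' table also holds were not used. For the TAD caller, the depth and the pooling of replicates, nothing is given in the sources used here. The tables were read with pandas 2.3.3 and scipy 1.17.1. The false discovery rate of a loop was the largest of its 4 q-values. Loops with an anchor on a sex chromosome or scaffold (149) were left out. Coordinates are those of the loop table, counted from 1. No header names a build. Genes came from RefSeq's table of Sscrofa11.1, and gene ends per autosomal anchor were most frequent at zero offset (0.87, against 0.72 and 0.704 at 50 kb to either side). Members, gene lists and the ratio of 4 were chosen with earlier results of these data known. Genes named were up to 2 at each anchor of the 10 groups of lowest rate (over 2 Mb, the 25 groups of most contacts), the 10 genes at most groups and up to 4 genes of each list, and any others were picked after their values were seen. Interval and overlap routines were tested on simulated data. Some genes that the naming rule selects are not reported here.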

Additional observations from a re-analysis of the deposited data

How the results depend on the processing

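The rule, the gene annotation, the expected contacts and the window at TAD edges were varied 1 at a time, and 53 of 73 alternative values stayed within 1.5 times a reported count or within the 95% interval of a reported share or median. The number of loops was 256 with a minimum span of 500 kb, 589 with 300 kb and 185 at or below the median false discovery rate of autosomal loops. The share with a gene end at an anchor was 72.0% with all annotated genes, 77.8% with anchors widened by 10 kb and 80.2% when whole genes were counted in place of their ends. The median ratio was 2.82 at a minimum of 500 kb, 2.39 at 300 kb and 2.86 at or below the median rate. Against the lower-left, horizontal and vertical neighbourhoods it was 2.44, 2.23 and 2.25, and by the lowest of the 4 ratios it was 2.09. The share with an anchor at a TAD edge was 32.5% with no window. The share with a ratio of 4 or more was 31.6% at a minimum of 500 kb, 15.6% at 300 kb and 16.3% with 20 or more contacts. The cause of these shifts was not tested. Alternatives without the most used window of chromosome 5 and without chromosome 6's loops over 2 Mb were added after the data were seen. No paired analysis was possible because the tables hold no value per replicate, and no replicate could be left out. Counts of 10 to 30 contacts give wide intervals, and most of the strongest loops below the first cannot be ordered.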

Other observations

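Gene classes other than protein-coding were also set against the anchors of the 400 long loops. Of 5206 autosomal lncRNA genes 102 had an end at such an anchor (1.96%), and 108 loops held at least 1 of them. Of 270 miRNA genes 3 did, and they are the cluster of MIR99B, MIRLET7E and MIR125A, all at 1 loop. Of 440 tRNA genes 13 did (2.95%), at 7 loops, and of 2096 pseudogenes 30 (1.43%). Of antigen receptor segments, 1 of 73 V segments (1.37%) and 0 of 7 constant regions were at such an anchor. These shares are near the 2.01% of protein-coding genes, and none of them is read as a difference.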
